A study of Mus musculus with 16 samples.

Results

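The genotype difference in the marrow response to 5-fluorouracil (5-FU) is the change with 5-FU in Nrf2-/- (KO) mice minus the change with 5-FU in wild-type (WT) mice. It was computed from the sample labels alone and used 16 of the 16 libraries in the series, 4 in each combination of genotype and 5-FU. The study sequenced RNA of bone marrow cells from C57BL/6 WT and Nrf2-/- KO mice in 8 groups of 2 libraries. In each genotype the arm without 5-FU held 2 libraries of mice given PBS and 2 of mice given BMX-001, the second agent of the study, and the arm with 5-FU held 2 libraries with 5-FU alone and 2 with both agents. The 5-FU dose was 20 mg/kg, repeated on day 7. BMX-001 was dosed at 0.5 mg/kg, beginning 24 h ahead of 5-FU and continuing every 3 days, with marrow collection on day 10. In WT the mice were males of 8 to 10 weeks. The KO mice came from Nrf2+/- parents of both sexes, and their age and sex are not given in the labels. The sex-linked gene Ddx3y stood at 41.1 to 57.7 CPM (counts scaled to a common library size) in WT libraries and at 39.7 to 68.7 CPM in KO libraries. Genotype and any difference in age, sex or breeding cannot be told apart from the labels. The labels describe duplicate isolations without saying that they came from separate animals, so the p-values may measure technical spread only. BMX-001 entered as a block, which makes each 5-FU effect a mean over mice with and without BMX-001.

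5-FU is converted in cells to nucleotides that inhibit thymidylate synthase and enter RNA and DNA, and marrow is one of the tissues it damages most. NRF2, the product of Nfe2l2, is a transcription factor that binds antioxidant response elements and drives genes for glutathione synthesis, quinone reduction and NADPH supply. Maturing red cells fill with haemoglobin, build a spectrin skeleton under the membrane and clear their organelles and nucleus, so a whole-marrow library carries a large share of transcripts from these cells.

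One library stood apart. KO BMX-001 replicate 1 held 27305707 counts against 32279138 to 39909188 in the other 15, lay at 87.3 on the first principal component against -26.4 to 9.23, and held 1129 CPM (counts scaled to a common library size) of the nuclear RNA Neat1 against 116 to 239 CPM. Results are therefore given for 15 libraries without it, with the value for all 16 beside each list and beside the genes for which it moved most. Haemoglobin transcripts made up 3.86% to 8.02% of the counts. Nfe2l2 (ENSMUSG00000015839.7) stood at 102 to 122 CPM in the 8 WT libraries and at 6.47 to 9.52 CPM in 7 KO libraries, with 16.9 CPM in KO BMX-001 replicate 1. Its 5-FU response differed between genotypes by 0.04 ± 0.13 (log2, SE), and by -0.30 ± 0.27 with 16 libraries.

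Both genotypes answered 5-FU mainly with lower transcript levels, and the lower calls were more numerous in KO marrow. With 15 libraries and edgeR's quasi-likelihood test at an adjusted p under 0.05, 156 genes fell and 26 rose in WT, which is 0.846% and 0.141% of 18441 genes tested and 0.987% in either direction. In KO, 673 fell and 94 rose, which is 3.65% and 0.51%, or 4.16% in either direction. The genotype difference itself passed this test for 0 genes (0%), and its smallest adjusted p was 0.239. At an unadjusted p under 0.05 the difference was lower in KO for 696 genes (3.77%) and higher for 404 (2.19%), 5.96% in all. DESeq2, run on the same libraries and genes, called 126 genes (0.683%), of which 125 were lower in KO (0.678%). Of those 126 genes, edgeR had 123 as fallen in KO and 22 as fallen in WT, and the largest unadjusted edgeR p of the genotype difference among them was 0.00926. Their median 5-FU effect was -0.12 in WT and -0.50 in KO on the log2 scale, and for 108 of the 126 the effect was negative in both genotypes. Another tool, limma voom with sample weights, called 0 genes for the genotype difference, with a smallest adjusted p of 0.151, so the DESeq2 calls rest on that tool.

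With all 16 libraries fewer genes were called. WT marrow then had 15 lower (0.082%) and 1 higher gene (0.00547%) of 18284 tested, 0.0875% in all, and KO marrow 368 (2.01%) and 49 (0.268%), 2.28% in all. The genotype difference was called for 0 genes by edgeR (0%), with 654 lower (3.58%) and 354 higher (1.94%) at an unadjusted p under 0.05 (5.51% in all) and a smallest adjusted p of 0.622, and for 55 genes by DESeq2 (0.301%), all 55 lower in KO. The number of WT calls rested on single libraries. From 182 calls in either direction it went to 41 when WT PBS replicate 2 was left out as well, to 28 without WT BMX-001 replicate 2, to 43 without WT 5-FU replicate 1 and to 24 without WT 5-FU replicate 2, and KO calls went from 767 to 424 without KO PBS replicate 1. With 16 libraries the 417 KO calls went to 261 without KO 5-FU replicate 1, and to 250 and 258 without replicates 1 and 2 of KO BMX-001 with 5-FU. The 16 WT calls went to 182 without KO BMX-001 replicate 1, to 31 without WT PBS replicate 1, and to between 0 and 11 without any other single library.

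Similar responses could be stated for many genes. The 95% interval of the genotype difference lay wholly within 1.5-fold in either direction for 9368 of 18441 genes (50.8%), and such genes are called alike here. With 16 libraries 6950 genes (38%) met this margin. Among the 811 genes called for 5-FU in at least 1 genotype, 569 were alike (70.2%). The 128 genes that fell in both genotypes had a median 5-FU effect of -0.43 in WT and -0.66 in KO, and 94 of them were alike. Another 545 genes fell by the KO test only, with medians of -0.15 in WT and -0.39 in KO, and 397 of these were alike, so a call in 1 genotype alone did not mark a difference between them. No gene was called in opposite directions. Across the 9411 genes whose log2 CPM averaged 3 or more over the 15 libraries, Pearson's r of the WT effect with the KO effect was 0.47 and Spearman's rho 0.53. These describe genes that are not independent and libraries that share one normalisation.

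**Figure D1:**
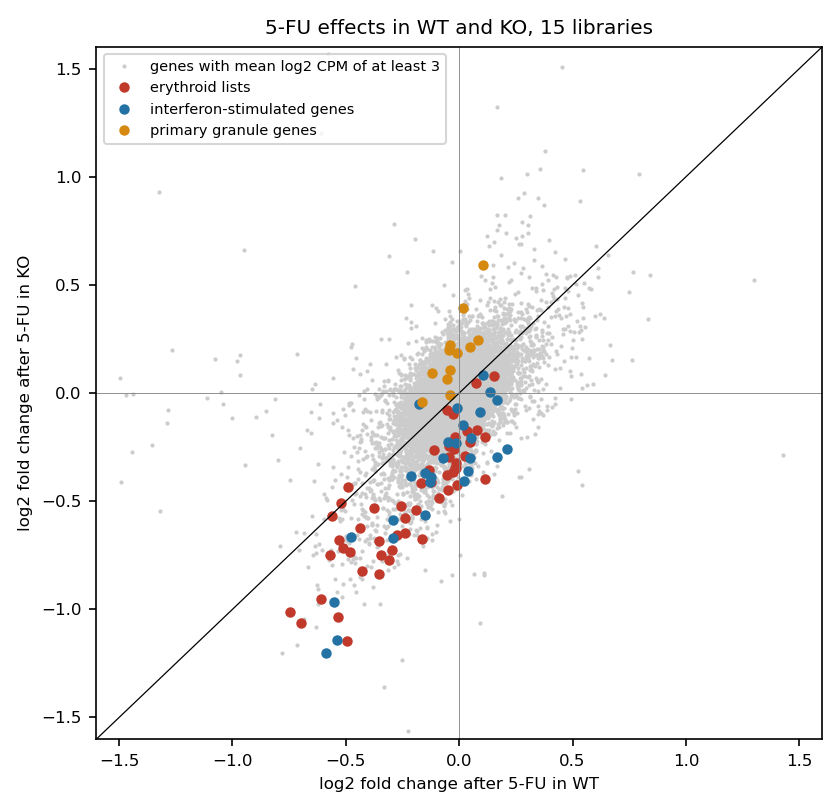
Each grey point is 1 of 9439 genes whose log2 CPM averaged 3 or more over all 16 libraries, with its log2 change after 5-FU in WT on the x axis and in KO on the y axis (15 libraries, diagonal for equal change, 14 genes outside the axes at 1.6). Coloured points are list members above the same level: erythroid genes (red) and interferon-stimulated genes (blue) lie mostly below the diagonal, and primary granule genes (orange) above it.

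Genes were then grouped into 32 lists by function. The lists for the red cell membrane, terminal erythroid maturation and interferon-stimulated genes had the lowest median genotype differences of the 32, at -0.34, -0.31 and -0.23. Repair, NRF2 target and cholesterol synthesis genes had medians of 0.04, 0.01 and 0.01, against 0.01 over all genes. With 16 libraries these 3 medians were 0.16, 0.11 and 0.05, against 0.00 over all genes. In whole marrow, fewer cells of a type and less RNA per cell cannot be told apart.

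**Figure D2:**
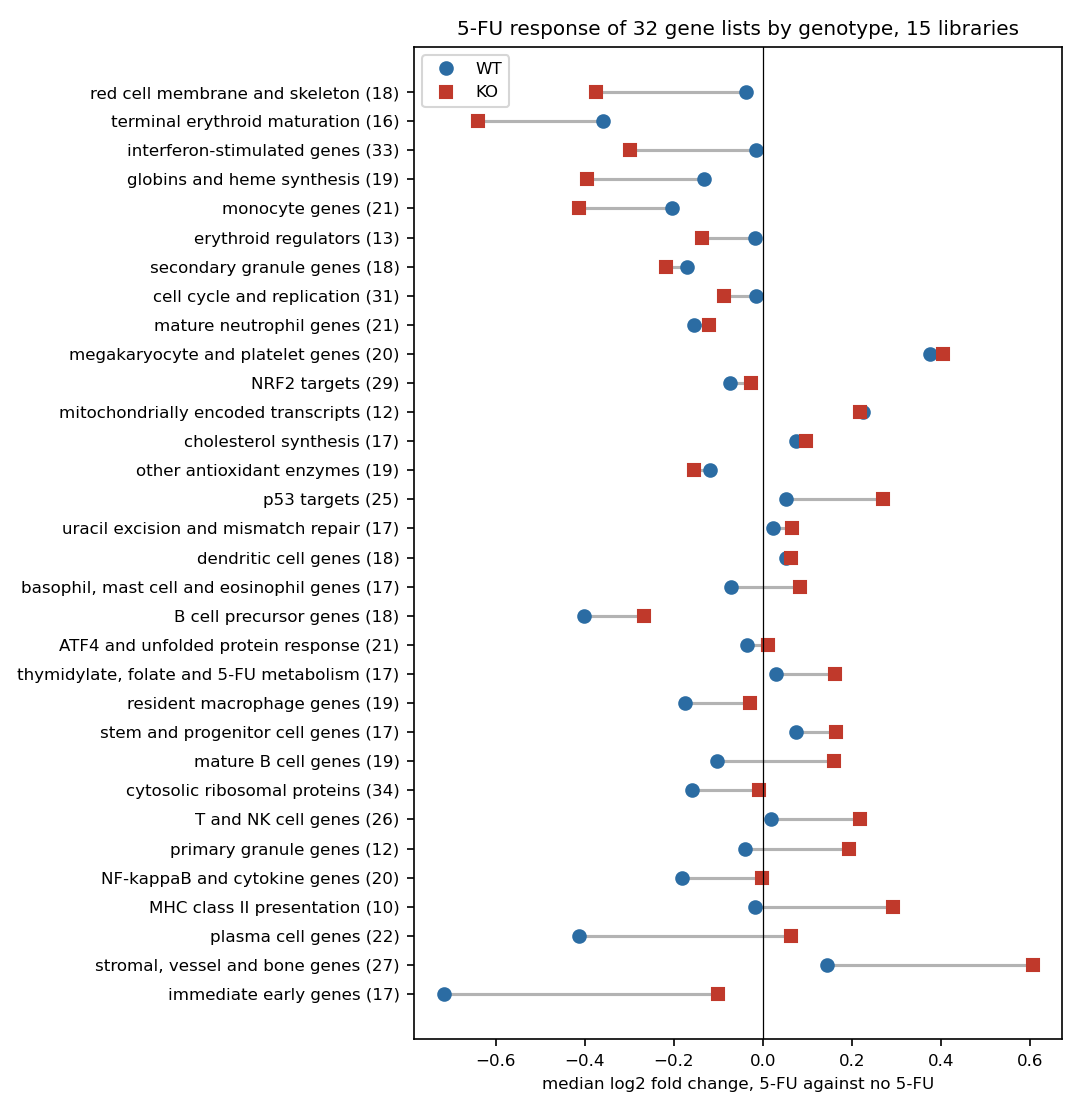
Median log2 change after 5-FU of each of the 32 lists (number of members tested in parentheses), WT as circles and KO as squares, 15 libraries. The 18 red cell membrane genes lie at -0.04 in WT and -0.37 in KO, and the 31 cell cycle genes at -0.02 and -0.09.

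With 15 libraries, genes of the red cell membrane and its skeleton had the more negative response in KO throughout. All 18 members had a negative genotype difference, with a median of -0.34 against 0.01 over all genes, and 15 of the 18 had an unadjusted p under 0.05 in the lower direction, where 3.77% of all genes did. In KO 13 of the 18 fell and in WT 2 did (all genes, 3.65% and 0.846%). The intervals of 9 of the 18 still lay within 1.5-fold, as for 50.8% of all genes. The median was -0.38 in the libraries without BMX-001 and -0.28 in those with it. With 16 libraries the median was -0.28, with 16 of the 18 negative, 7 at an unadjusted p under 0.05 (all genes, 3.58%) and 7 called lower in KO (2.01%). Before 5-FU the list's median difference between KO and WT was 0.08, and after 5-FU it was -0.23. On the log2 scale relative to WT without 5-FU, the list's level was -0.42 to -0.18 in KO libraries with 5-FU. KO BMX-001 replicate 1, which had no 5-FU, lay at -0.24, so the KO arms overlapped when it was counted.

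Epb42 (ENSMUSG00000023216.14) encodes protein 4.2, which ties the anion exchanger to the skeleton. In WT it stood at 458, 519.7, 510.2 and 559.8 CPM without 5-FU and at 407, 387, 417 and 442 CPM with 5-FU, where here and below the libraries without BMX-001 come first. In KO it stood at 505, 557, 459 and 489 CPM without 5-FU, the third value being KO BMX-001 replicate 1, and at 318.5, 294, 286 and 318 CPM with 5-FU. The arms did not overlap in either genotype, and all 4 KO libraries with 5-FU lay below every other library. The 5-FU effect was -0.31 ± 0.07 in WT and -0.77 ± 0.08 in KO, a genotype difference of -0.46 ± 0.10 (log2, SE; edgeR unadjusted p = 0.000229, adjusted p = 0.266; DESeq2 adjusted p = 0.00212). With 16 libraries the difference was -0.42 ± 0.12.

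Its partners also had the more negative effect in KO. Slc4a1, the anion exchanger band 3 itself, had effects of -0.29 in WT and -0.72 in KO, and Ank1, the ankyrin that holds it to spectrin, of -0.09 and -0.49. For Sptb (beta spectrin) the values were -0.05 and -0.45, and for Dmtn (dematin, an actin-bundling protein) -0.03 and -0.37. With 16 libraries the KO effect of Sptb was -0.31 ± 0.12 and did not pass the test. DESeq2 called the genotype difference of 7 members with 15 libraries, among them Slc4a1, Epb42, Ank1, Sptb, Dmtn and Ermap, where it called 0.678% of all genes as lower. With 16 libraries it called 2, among them Epb42. Add2, Aqp1 and Icam4 had the smallest differences of the list, at -0.18, -0.15 and -0.08, with unadjusted p-values above 0.1.

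Most genes of terminal maturation fell in both genotypes, with the more negative effects in KO. The list's median 5-FU effect was -0.36 in WT and -0.64 in KO, and 9 of 16 members fell in WT and 15 of 16 in KO (all genes, 0.846% and 3.65%). The genotype difference was negative for 16 of 16, with a median of -0.31 and 11 at an unadjusted p under 0.05 (all genes, 3.77%). Of the 16, 10 were still alike (62.5%, against 50.8% of all genes), and 7 with 16 libraries (43.8%, against 38%). With 16 libraries 2 fell in WT and 13 in KO (all genes, 0.082% and 2.01%), and the median difference was -0.29, with 7 at an unadjusted p under 0.05 (3.58%). It was -0.27 in the libraries without BMX-001 and -0.31 in those with it. Xpo7 (ENSMUSG00000022100.15), a nuclear export receptor used when erythroblasts condense their nucleus, stood in WT at 1274, 1616, 1498 and 1725 CPM without and 1152, 955, 1089 and 1135 CPM with 5-FU. In KO it stood at 1579, 1706, 1742 and 1563 CPM without and 583, 833, 712 and 822 CPM with 5-FU. The arms did not overlap in either genotype, and the KO libraries with 5-FU were the lowest of all. Its effect was -0.50 ± 0.10 in WT and -1.15 ± 0.11 in KO, with a genotype difference of -0.65 ± 0.15 (edgeR unadjusted p = 0.000517, adjusted p = 0.266; DESeq2 adjusted p = 0.00366).

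Other members with a DESeq2 call for the genotype difference were Tmcc2, Trim58 (a ubiquitin ligase of late erythroblasts), Trim10, Foxo3 (a transcription factor of erythroblast maturation) and Mxi1, so 6 of 16 in all (all genes, 0.678%). With 16 libraries Tmcc2, Xpo7 and Trim58 were the 3 called. Ube2o, a ubiquitin enzyme that removes ribosomal and other proteins from reticulocytes, fell by 0.70 in WT and by 1.06 in KO, and its genotype difference was -0.36 ± 0.14. Bpgm, which makes the 2,3-bisphosphoglycerate that lowers the oxygen affinity of haemoglobin, had 1092, 1598, 1649 and 1710 CPM in WT without and 725, 788, 1046 and 1067 CPM with 5-FU. Its effects of -0.75 in WT and -1.01 in KO both passed the test, and its genotype difference of -0.27 ± 0.15 was alike within 1.5-fold, which the interval of -0.62 to 0.07 with 16 libraries was not.

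Trim10 is shown with its promoter because it fell in both genotypes and its upstream region holds a GATA match. Its effect was -0.43 ± 0.08 in WT and -0.82 ± 0.08 in KO, with a genotype difference of -0.39 ± 0.11. The 250 bases before its RefSeq start (GRCm38.p6, chr17:36869324-36869573, plus strand) are given 5′ to 3′, with the match to AGATAA on the opposite strand in capitals, at -163 to -158 from the start.
Trim10: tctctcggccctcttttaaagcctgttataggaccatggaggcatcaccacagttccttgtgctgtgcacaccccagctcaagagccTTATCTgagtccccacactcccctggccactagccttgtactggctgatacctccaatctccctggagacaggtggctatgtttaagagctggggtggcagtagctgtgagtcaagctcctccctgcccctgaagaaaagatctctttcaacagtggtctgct
AGATAA was searched on both strands from 250 bases before to 50 after each start. It occurred in 14 of the 49 erythroid genes with a window (28.6%), counted over the 4 erythroid lists here and 67 listed symbols, and in 12.7% of all 27025 genes with a window.

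Globins and heme synthesis were split. Hba-a1 (ENSMUSG00000069919.8), an alpha globin gene, stood in WT at 11230, 13800, 13190 and 14170 CPM without 5-FU and at 8072, 7244, 11300 and 10240 CPM with 5-FU. In KO it stood at 14190, 15970, 15130 and 14970 CPM without and 10780, 9799, 12190 and 10770 CPM with 5-FU. The arms overlapped by 1 library in WT and not in KO, and the effects were -0.52 ± 0.10 and -0.51 ± 0.11, a genotype difference of 0.01 ± 0.15 with a 95% interval from -0.30 to 0.32. Hbb-bs (beta globin) had -0.49 and -0.43, and Alas2, the first enzyme of heme synthesis in red cells, -0.53 and -0.68, both alike. The near-identical globin copies share reads, so the division between them is uncertain. Against these, Slc25a37 (mitoferrin, the mitochondrial iron importer) had a genotype difference of -0.48 ± 0.12 and Tfrc (the transferrin receptor) of -0.51 ± 0.13, and neither was alike. Fech (which inserts iron into heme) had a difference of -0.33 ± 0.11 and was alike within 1.5-fold. Slc25a37, Tfrc and Fech were the 3 of 19 members with a DESeq2 call, and with 16 libraries Slc25a37 was the 1 called. Tfrc had an effect of 0.11 ± 0.09 in WT and fell by 0.40 in KO.

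For Slc25a37 the genotypes were apart before 5-FU as well. WT libraries held 2259, 2873, 2778 and 3048 CPM without and 2194, 1980, 2119 and 2281 CPM with 5-FU, and KO libraries 3168, 3477, 3506 and 3293 CPM without and 1691, 1874, 1945 and 2030 CPM with 5-FU. KO thus stood above all WT libraries without 5-FU, and with 5-FU its range lay below and partly within that of WT. Over the list of 19, the median effect was -0.13 in WT and -0.40 in KO, and 8 fell in WT and 12 in KO (all genes, 0.846% and 3.65%). Of the 19, 17 were alike (89.5%, against 50.8% of all genes), and 6 had an unadjusted p under 0.05 for the genotype difference, in the lower direction (3.77%). With 16 libraries 1 fell in WT and 7 in KO (all genes, 0.082% and 2.01%), 14 were alike (38%) and 3 had an unadjusted p under 0.05 in the lower direction (3.58%). Of those named above, neither effect of Hba-a1 or Hbb-bs passed the test with 16 libraries, while the KO effect of Alas2 did.

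Regulators of red cell formation, a list of transcription factors and their partners with the receptor gene Epor, were alike in 13 of 13 cases (all genes, 50.8%). With 16 libraries 11 of 13 were alike (38%). Gata1, the master factor of the lineage, had effects of 0.03 ± 0.08 in WT and -0.01 ± 0.09 in KO, and Klf1, which drives globin and membrane genes, of 0.08 ± 0.09 and -0.06 ± 0.10. Tal1 (0.07 and -0.24), E2f2 (-0.22 and -0.52) and Nfe2 (-0.08 and -0.32) had an unadjusted p under 0.05 for a lower response in KO (all genes, 3.77%). Of these E2f2 and Nfe2 fell in KO. Over the list 3 of 13 fell in KO and 0 in WT (all genes, 3.65% and 0.846%). With 16 libraries E2f2 was the 1 member that fell in KO (all genes, 2.01%), and 0 had an unadjusted p under 0.05 for the difference in edgeR. The list's median difference was -0.12 with 11 of 13 negative, and -0.01 with 7 of 13 negative with 16 libraries.

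**Figure D3:**
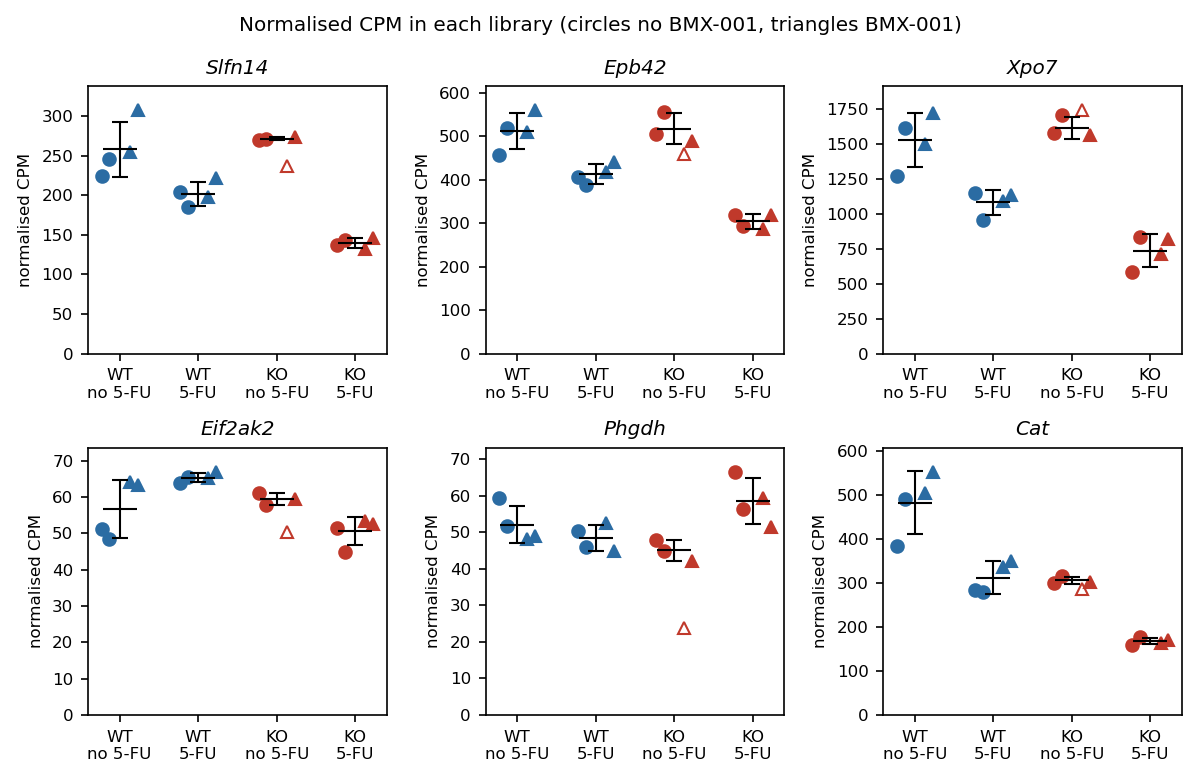
Normalised CPM of Slfn14, Epb42, Xpo7, Eif2ak2, Phgdh and Cat in each library by genotype and 5-FU, circles without and triangles with BMX-001, the open symbol KO BMX-001 replicate 1, bars the mean ± SD without that library. KO libraries with 5-FU lie lowest for Slfn14 (132 to 146 CPM), Epb42 (286 to 318.5 CPM) and Xpo7 (583 to 833 CPM), and also for Cat (160 to 177 CPM).

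Interferon-stimulated genes formed the other group with a lower response in KO. These genes answer type I and type II interferon and many restrict viruses. Of 33 tested, 30 had a negative genotype difference, with a median of -0.23, and 11 had an unadjusted p under 0.05 in the lower direction, where 3.77% of all genes did. In KO 9 of the 33 fell (all genes, 3.65%) and in WT 0 did (0.846%), by edgeR, with 6 in WT at an unadjusted p under 0.05. Of the 33, 9 were alike (27.3%, against 50.8% of all genes). With 16 libraries the median was -0.27, 9 had an unadjusted p under 0.05 in the lower direction (all genes, 3.58%) and 7 fell in KO (2.01%). Then 8 were alike (24.2%, against 38% of all genes). The median was -0.26 without BMX-001 and -0.22 with it. The list's level in KO libraries with 5-FU ran from -0.53 to -0.19 on the log2 scale relative to WT without 5-FU, and KO BMX-001 replicate 2, which had no 5-FU, also lay at -0.19, so the KO arms touched.

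Eif2ak2 (ENSMUSG00000024079.5) encodes PKR, the kinase that halts translation on double-stranded RNA. In WT it stood at 51.2, 48.6, 64.1 and 63.3 CPM without and 63.8, 65.5, 65.3 and 67.0 CPM with 5-FU. In KO it stood at 61.0, 57.8, 50.4 and 59.6 CPM without and 51.6, 44.9, 53.5 and 52.5 CPM with 5-FU. The 2 genotypes did not overlap after 5-FU, and without 5-FU they did. Neither 5-FU effect passed the test, at 0.21 ± 0.07 in WT and -0.26 ± 0.07 in KO, while the genotype difference was -0.47 ± 0.10 (edgeR unadjusted p = 0.000169, adjusted p = 0.266; DESeq2 adjusted p = 0.00329).

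Rsad2 (ENSMUSG00000020641.17), the antiviral enzyme viperin, was another member with a DESeq2 call. In WT it stood at 775, 1075, 1078 and 1265 CPM without and 681, 584, 835 and 786 CPM with 5-FU, and in KO at 998, 1387, 1135 and 1050.0 CPM without and 502.5, 514, 589 and 535 CPM with 5-FU. The WT arms overlapped and the KO arms did not. Its effect was -0.54 ± 0.13 in WT and -1.14 ± 0.14 in KO, with a genotype difference of -0.60 ± 0.19 (edgeR unadjusted p = 0.00643, adjusted p = 0.57; DESeq2 adjusted p = 0.0274). Parp14 was the third member with a DESeq2 call, with effects of 0.17 and -0.30. Isg15, the ubiquitin-like modifier, and Ifit1, which binds foreign RNA ends, fell in KO by 1.20 and 0.96, and their WT effects of -0.59 and -0.55 did not pass the test. Their genotype differences of -0.62 ± 0.33 and -0.41 ± 0.21 had unadjusted p-values of 0.091 and 0.0674. Mx2 had the widest difference, -1.01 ± 0.28, at 1.18 to 4.37 CPM only.

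The promoter of Rsad2 is shown because it holds an interferon-stimulated response element core, GAAA followed by any 2 bases and a second GAAA, the sequence read by the factors that interferon activates. The 250 bases before its RefSeq start (GRCm38.p6, chr12:26456453-26456702, minus strand) are given 5′ to 3′. Capitals mark that core on the opposite strand at -120 to -111, and an antioxidant response element core, TGACNNNGC, on the opposite strand at -231 to -223.
Rsad2: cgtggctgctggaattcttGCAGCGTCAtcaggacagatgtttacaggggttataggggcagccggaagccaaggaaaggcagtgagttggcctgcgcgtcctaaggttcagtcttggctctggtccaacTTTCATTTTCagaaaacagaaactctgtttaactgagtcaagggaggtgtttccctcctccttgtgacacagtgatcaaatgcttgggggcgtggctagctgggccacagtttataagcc
The interferon core was present in 14 of the 23 interferon-stimulated genes with a window (60.9%) and in 3.99% of all genes with one. Of the 15 genes with the smallest p-values for the genotype difference, 11 had a window, and the interferon core occurred in 1, AGATAA in 2 and the antioxidant core in 0 of them.

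Among white cell lists, monocyte genes had the most KO calls. Of 21 monocyte genes 10 fell in KO (all genes, 3.65%) and 1 in WT (0.846%), with medians of -0.41 and -0.21. The genotype difference had a median of -0.14 with 15 alike (71.4%, against 50.8% of all genes). This rested on the library left out: with 16 libraries 2 fell in KO and 0 in WT (all genes, 2.01% and 0.082%). Then 10 were alike (47.6%, against 38% of all genes) and the median difference was 0.00. Csf1r, the receptor for the monocyte growth factor, had 86.3 CPM in KO BMX-001 replicate 1 against 197 to 272 CPM in the other KO libraries without 5-FU, and its genotype difference was -0.32 ± 0.12 with 15 and -0.06 ± 0.30 with 16 libraries. Cx3cr1, a chemokine receptor of patrolling monocytes, fell in both genotypes by 0.56 and 0.79 with 15 libraries. With 16 libraries its effects were -0.55 ± 0.29 in WT (edgeR adjusted p = 0.67) and -0.47 ± 0.30 in KO (adjusted p = 0.431), and the interval of its genotype difference ran from -0.81 to 0.98, too wide to call alike.

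The primary granule list, a list of genes that promyelocytes express, had a positive genotype difference for 12 of 12 members, with a median of 0.18. Only Ms4a3 and Plppr3 had an unadjusted p under 0.05 for it (all genes in this direction, 2.19%). They were also the 2 members that rose in KO (all genes, 0.51%). With 15 libraries 7 of the 12 were alike (58.3%, against 50.8% of all genes). With 16 libraries 12 of 12 were positive with a median of 0.38, and 3 were alike (25%, against 38% of all genes). Plppr3 was then the 1 member that rose in KO (0.268%). Plppr3 stood at 8.07 to 11.4 CPM in KO without and 12.8, 15.3, 15.3 and 16.7 CPM in KO with 5-FU, and at 8.38 to 11.6 and 9.30 to 10.8 CPM in WT. Only the KO libraries with 5-FU lay apart, and the genotype difference was 0.48 ± 0.15. Mpo, the myeloperoxidase gene, had a genotype difference of 0.16 ± 0.16 with 15 and 0.51 ± 0.49 with 16 libraries, and 287 CPM in KO BMX-001 replicate 1 against 1383 to 2268 CPM elsewhere.

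MHC class II genes, which present antigen to T cells, had positive differences for 10 of 10, with a median of 0.30. H2-Aa, H2-Ab1 and H2-DMb2 had an unadjusted p under 0.05 (all genes in this direction, 2.19%). Of the 10, 4 were alike (40%, against 50.8% of all genes). The edgeR test for 5-FU was passed by 0 of the 10 in either genotype, with 0 in WT and 6 in KO at an unadjusted p under 0.05. The median was 0.42 in the libraries without BMX-001 and -0.02 in those with it, a difference between strata that was not tested for the list. With 16 libraries 8 of 10 were positive, with a median of 0.26 and 2 at an unadjusted p under 0.05 (1.94%). Then 5 were alike (50%, against 38% of all genes). Lists for neutrophil secondary granules and mature neutrophils had 15 of 18 and 14 of 21 members alike, and resident macrophages 15 of 19, where 50.8% of all genes were alike. With 16 libraries these counts were 8 of 18, 10 of 21 and 3 of 19, against 38% of all genes.

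**Figure D4:**
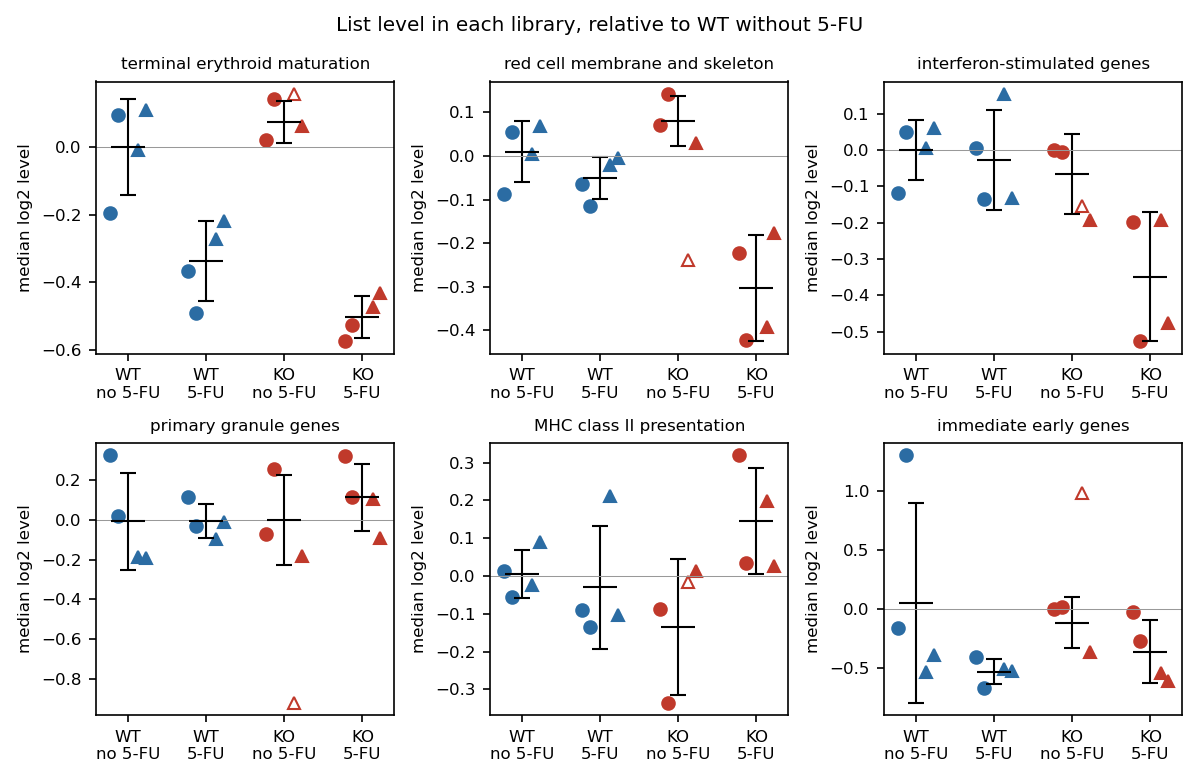
Median log2 level of 6 lists in each library, relative to the mean of WT without 5-FU, circles without and triangles with BMX-001, the open symbol KO BMX-001 replicate 1, bars the mean ± SD without it. Terminal erythroid genes lie at -0.57 to -0.43 in KO with 5-FU and -0.49 to -0.22 in WT with 5-FU, and the immediate early genes of WT PBS replicate 2 stand at 1.30.

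Among functions tied to the action of 5-FU, cell division and DNA repair were alike in both genotypes with 15 libraries, where 50.8% of all genes were. All 31 cell cycle and replication genes were alike, with medians of -0.02 in WT and -0.09 in KO. Of the 31, 4 had an unadjusted p under 0.05 for a lower response in KO (all genes, 3.77%). In KO 2 fell and in WT 0 did (all genes, 3.65% and 0.846%). With 16 libraries 0 had such a p and 0 fell in KO (all genes, 3.58% and 2.01%). All 17 genes of uracil excision and mismatch repair were alike too, with medians of 0.02 and 0.07. Tyms, thymidylate synthase, stood at 87.6 to 92.4 CPM in WT without and 101 to 103 CPM with 5-FU, and at 83.8 to 93.6 CPM in 3 KO libraries without and 89.5 to 107 CPM with 5-FU. The WT arms separated and the KO arms overlapped, yet the effects were 0.17 ± 0.06 and 0.13 ± 0.06, neither passed the test, and the difference was -0.04 ± 0.08. In this list of thymidylate, folate and 5-FU metabolism 12 of 17 were alike. A higher response in KO had an unadjusted p under 0.05 for 3 of the 17 (all genes, 2.19%), and for 2 with 16 libraries (1.94%). Dctpp1, which degrades modified deoxycytidine triphosphates, had the smallest p, with a difference of 0.47 ± 0.15. The edgeR test for 5-FU was passed by 0 of the 17 in either genotype. With 16 libraries 22 of 31 cell cycle genes, 9 of 17 repair genes and 7 of 17 thymidylate genes were alike (all genes, 38%), and the median SE over all genes was 0.24 against 0.19.

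Targets of p53, the factor that DNA damage activates, mostly rose where they passed the test. In WT 4 of 25 rose (all genes, 0.141%), and in KO 7 rose (0.51%) and 2, Sesn1 and Btg2, fell (3.65%). With 16 libraries 1 rose in WT, Eda2r, and in KO 2 rose and 1, Sesn1, fell. Eda2r, a death receptor of the tumour necrosis factor family, rose from 0.12 ± 0.07 to 1.09 ± 0.40 CPM in WT (SD, n = 4) and from 0.32 ± 0.08 (n = 3) to 1.54 ± 0.19 CPM (n = 4) in KO. Its effects were 3.08 ± 0.36 and 2.25 ± 0.35, and the difference of -0.84 ± 0.52 had an interval from -1.93 to 0.25, too wide to call alike. Ccng1 (cyclin G1) rose by 0.30 in WT and 0.29 in KO, and its difference of -0.01 ± 0.09 was alike. Cdkn1a, the cell cycle inhibitor p21, had 8.59, 20.4, 7.62 and 8.82 CPM in WT without and 14.8, 15.8, 18.2 and 11.5 CPM with 5-FU, and in KO 8.94, 11.0, 18.6 and 8.26 CPM without and 33.0, 24.4, 24.4 and 20.9 CPM with 5-FU. One library in each arm without 5-FU was high, WT PBS replicate 2 and KO BMX-001 replicate 1. The genotype difference was 1.05 ± 0.39 with 15 and 0.68 ± 0.44 with 16 libraries.

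NRF2 target genes had a median genotype difference of 0.01 with 15 libraries, where that of all genes was also 0.01, and of 0.11 against 0.00 with 16. Of 29 tested, 25 were alike with 15 libraries (86.2%, against 50.8% of all genes) and 19 with 16 (65.5%, against 38%). In KO 3 rose and 2 fell (all genes, 0.51% and 3.65%), as many as with 16 libraries (0.268% and 2.01%). In WT 1 fell with 15 libraries (all genes, 0.846%) and 0 with 16 (0.082%). At an unadjusted p under 0.05 the difference was higher in KO for 2 and lower for 1 with 15 libraries (all genes, 2.19% and 3.77%). With 16 libraries it was higher for 3 and lower for 0 (1.94% and 3.58%). Nqo1, the quinone reductase that is a standard readout of NRF2, stood at 18.6 to 20.8 CPM in WT without 5-FU and 16.7 to 20.6 CPM with it, and at 10.9 to 13.9 CPM and 10.7 to 14.1 CPM in KO. The genotypes were separate with and without 5-FU, neither 5-FU effect passed the test, and the genotype difference of the effects was -0.04 ± 0.14. DESeq2 called the genotype difference of 1 member with 15 libraries and of 0 with 16 (all genes, 0.683% and 0.301%). The 1 member was Gclm, the modifier subunit of the enzyme that starts glutathione synthesis. It stood at 279.5, 320.1, 331 and 356 CPM in WT without and 280.2, 273, 299 and 287 CPM with 5-FU, and in KO at 308, 348, 256 and 331 CPM without and 251, 221, 228.5 and 239 CPM with 5-FU. All 4 KO libraries with 5-FU lay below every other library, KO BMX-001 replicate 1 being the nearest. The effects were -0.17 ± 0.07 and -0.50 ± 0.07, and the difference was -0.32 ± 0.10 with 15 and -0.23 ± 0.14 with 16 libraries. Its intervals, from -0.53 to -0.12 and from -0.52 to 0.06, lay within 1.5-fold, so Gclm counts among the alike members. Me1, malic enzyme, had a difference of 1.26 ± 0.43 at 0.18 to 0.66 CPM.

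The promoter of Gclm is shown for its antioxidant response element core, TGACNNNGC, on the opposite strand at -134 to -126 (RefSeq, GRCm38.p6, chr3:122245307-122245556, plus strand, 250 bases before the start, 5′ to 3′, match in capitals).
Gclm: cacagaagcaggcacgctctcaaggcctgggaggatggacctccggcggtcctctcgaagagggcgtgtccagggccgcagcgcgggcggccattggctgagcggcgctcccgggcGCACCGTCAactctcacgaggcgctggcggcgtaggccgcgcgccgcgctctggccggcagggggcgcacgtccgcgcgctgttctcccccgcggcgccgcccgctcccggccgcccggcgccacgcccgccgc
That core occurred in 12 of the 24 NRF2 targets with a window (50%) and in 14.0% of all genes with one.

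Of the other antioxidant enzymes 17 of 19 were alike with 15 libraries (all genes, 50.8%) and 14 with 16 (38%). Cat, catalase, headed the genes that fell in both genotypes and were alike. It stood in WT at 384, 491, 505 and 553 CPM without and 283, 279, 337 and 351 CPM with 5-FU, and in KO at 300, 315, 286 and 302 CPM without and 160, 177, 165 and 171 CPM with 5-FU. The arms did not overlap in either genotype, and KO with 5-FU was the lowest. The effects were -0.63 ± 0.08 in WT and -0.89 ± 0.09 in KO, and the difference of -0.26 ± 0.12 had an interval from -0.51 to -0.01, inside the 1.5-fold margin of 0.585. Txnrd2, the mitochondrial thioredoxin reductase, fell in KO by 0.40, with a WT effect of -0.11 and a difference of -0.28 ± 0.09.

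In all, 96 genes of mean log2 CPM of at least 3 were called in the same direction in both genotypes and alike, 91 lower and 5 higher. Among the 10 with the smallest p-values in both were Cat, Ubb, Bpgm, Dcaf12, Cx3cr1, Calcoco1, Iscu, Pabpc1 and Adipor1. With 16 libraries Cx3cr1 and Bpgm were not alike, Pabpc1 and Adipor1 passed the test in KO only, and Cx3cr1 passed it in neither genotype. Iscu, the scaffold on which iron-sulfur clusters are built, was the closest match, with 71.5, 84.4, 68.8 and 81.1 CPM in WT without and 50.1, 46.6, 60.3 and 58.1 CPM with 5-FU, against 77.1, 82.1, 82.6 and 77.9 CPM and 56.8, 52.7, 55.2 and 54.7 CPM in KO. The arms separated in both genotypes and the genotypes overlapped within each arm. Its effects were -0.51 ± 0.08 and -0.54 ± 0.08. Ubb (ubiquitin) had -0.62 and -0.70, and Pabpc1 (the poly(A)-binding protein) -0.50 and -0.66.

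The genes with the smallest p-values for the genotype difference were all lower in KO. They were 15 genes, the 10 leading genes of each analysis, with differences of -0.65 to -0.35. Slfn14 (ENSMUSG00000082101.4), an RNA-cleaving member of the Schlafen family, had the smallest p with 15 libraries. It stood in WT at 225, 245, 254 and 307 CPM without and 204, 185, 197 and 222 CPM with 5-FU, and in KO at 269.5, 272, 236 and 273 CPM without and 137, 143, 132 and 146 CPM with 5-FU. The arms did not overlap in either genotype. The effects were -0.35 ± 0.07 and -0.98 ± 0.08, and the difference was -0.63 ± 0.11 with 15 libraries (edgeR unadjusted p = 1.43e-05, adjusted p = 0.239) and -0.56 ± 0.13 with 16. It was the 1 gene that edgeR called when WT BMX-001 replicate 2 was left out as well, at -0.70 with an adjusted p of 0.0147. With 16 libraries Dennd4a had the smallest p of the named genes (edgeR unadjusted p = 0.000321, adjusted p = 0.749), and a pseudogene outside the naming rule had the smallest of all.

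Asb1, an adaptor of ubiquitin ligases, stood at 277 to 306 CPM in WT without and 258 to 294 CPM with 5-FU, and at 281 to 321 CPM in KO without and 206 to 227 CPM with 5-FU. Only the KO libraries with 5-FU lay apart, and the difference was -0.45 ± 0.08. The same held for Trim56, a ubiquitin ligase of antiviral signalling (223 to 274, 244 to 254, 238 to 257 and 165 to 204 CPM in the same order of arms), Dennd4a, an activator of Rab proteins (556 to 695, 569 to 622, 655 to 774 and 428 to 494 CPM) and Phlpp2, a phosphatase of the kinase AKT (87.1 to 95.7, 85.5 to 93.3, 90.7 to 105 and 70.9 to 78.8 CPM). Their WT effects were -0.02, -0.07 and -0.05 and their KO effects -0.45, -0.55 and -0.45. Sowaha fell in both genotypes, by 0.49 and 1.14. Further leading genes were Plpp1, Fhdc1, Cpeb3, H2-T24, Map4k5, Fbxo30 and Rffl, beside Eif2ak2 above. With 15 libraries Phlpp2 and Rffl were also alike within 1.5-fold, with intervals from -0.57 to -0.22 and from -0.51 to -0.18.

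**Figure D5:**
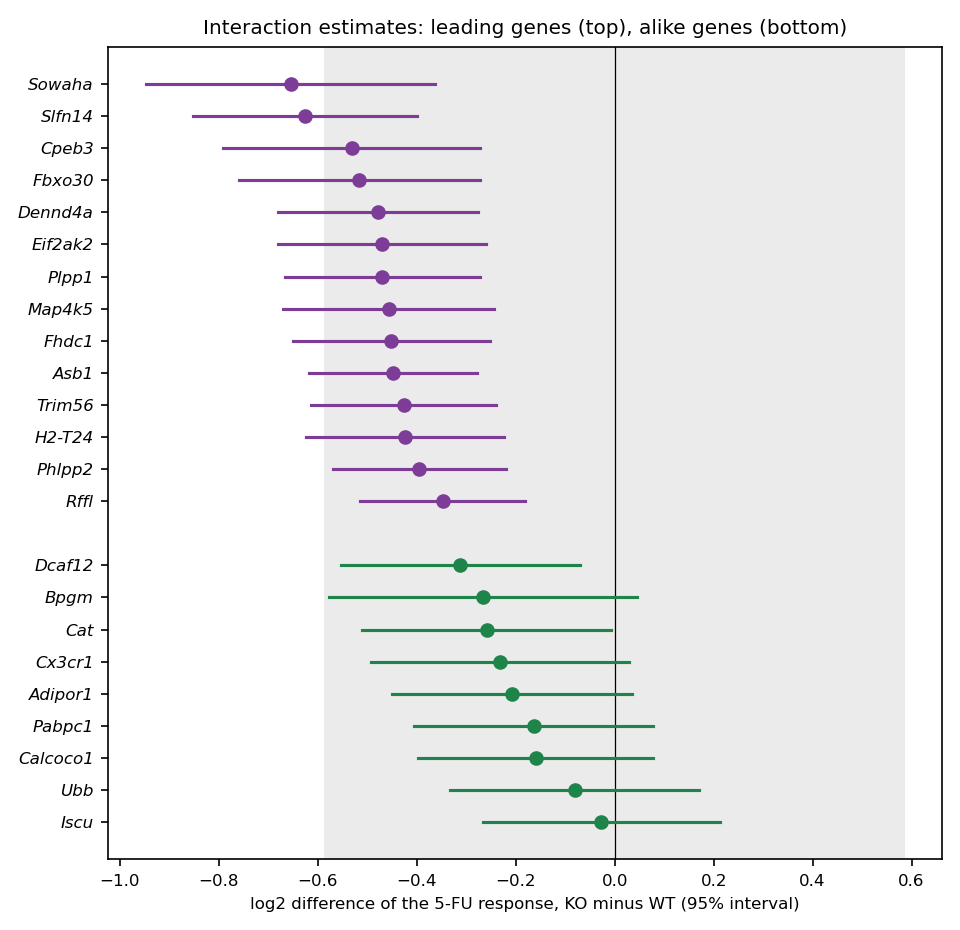
Genotype difference of the 5-FU response (log2, KO minus WT) with its 95% interval, 15 libraries, for 14 leading genes (purple) and 9 genes that fell in both genotypes and were alike (green), the grey band marking 1.5-fold. The purple intervals lie left of 0, Slfn14 from -0.85 to -0.40, and the green ones inside the band, Iscu from -0.27 to 0.21. The 2 sets are not exclusive. Rffl (-0.51 to -0.18) and Phlpp2 (-0.57 to -0.22) are purple and lie inside the band, and the green intervals of Cat and Dcaf12 lie left of 0.

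A higher response in KO was rarer. DESeq2 called 1 gene higher with 15 libraries and 0 with 16. The 1 gene was Phgdh (ENSMUSG00000053398.12), the first enzyme of serine synthesis. It stood in WT at 59.4, 51.6, 48.2 and 49.0 CPM without and 50.3, 45.9, 52.5 and 44.8 CPM with 5-FU, and in KO at 48.0, 45.0, 23.8 and 42.1 CPM without and 66.5, 56.3, 59.4 and 51.5 CPM with 5-FU. The WT arms overlapped and the KO arms did not. The effects were -0.10 ± 0.08 and 0.39 ± 0.08, with a difference of 0.50 ± 0.11 (edgeR unadjusted p = 0.000304, adjusted p = 0.266; DESeq2 adjusted p = 0.00853). Of the other 20 genes of the ATF4 and unfolded protein response list, 0 had an unadjusted p under 0.05 for the difference in edgeR.

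Cytosolic ribosomal protein genes had a positive difference for 34 of 34, with a median of 0.15, and 33 of the 34 were alike (97.1%, against 50.8% of all genes). With 16 libraries 33 were positive, the median was 0.27 and 15 were alike (44.1%, against 38% of all genes). The median was 0.28 without BMX-001 and 0.02 with it. Immediate early genes, such as Fos and Egr1, had 17 of 17 positive differences with a median of 0.61, and this rested on WT PBS replicate 2, where Egr1 stood at 37.9 CPM against 9.26 to 10.9 CPM in the other WT libraries without 5-FU. With 16 libraries 12 of 17 were positive, with a median of 0.12. Without WT PBS replicate 2 the median with the other 14 was 0.09, and it was -0.05 in the libraries with BMX-001. Stromal, vessel and bone genes had 26 of 27 positive differences with a median of 0.49 and a median SE of 0.51, none at an unadjusted p under 0.05, and a median of -0.16 in the libraries with BMX-001. With 16 libraries their median was 0.59, with 1 at an unadjusted p under 0.05. Megakaryocyte genes had a median SE of 0.70, so 1 of 20 could be called alike with 15 libraries and 0 with 16, and 0 had an unadjusted p under 0.05. A term for the genotype difference that also depended on BMX-001 was called for 0 genes by edgeR, with 771 at an unadjusted p under 0.05 and a smallest adjusted p of 0.98 with 15 libraries.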

How the data were processed

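RNA of bone marrow cells was sequenced in 16 libraries. The authors deposited raw counts per gene, 1 column per library, for 57132 Ensembl genes, and 0 columns were unused. The submitters' processing notes list featureCounts, Salmon 1.4.0, Trim Galore 0.6.4, DESeq2 1.38.3, FastQC 0.12.1 and R 4.3.0, with GRCm39 as build, and do not tie them to steps. For aligner, annotation and strand setting, nothing is stated in the sources used here, so overlapping and antisense genes cannot be separated. Symbols came from a GRCm38 annotation by Ensembl ID (51880 matched) and no coordinates of genes are given. Promoters are RefSeq, GRCm38.p6, 32851 windows from 250 bases before to 50 after a start.

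Low counts were removed by filterByExpr over the 4 arms of genotype and 5-FU, libraries were scaled by TMM, and edgeR 4.0.16 (R 4.3.3) fitted genotype, 5-FU, their interaction and BMX-001 with a robust quasi-likelihood model and Benjamini-Hochberg adjustment over all genes at 0.05. SE came from the F statistic and 95% intervals from the t distribution on its total degrees of freedom. The 2 libraries of a group differed by more than sampling noise in all 8 groups (chi-square per degree of freedom 8.9 to 146). DESeq2 1.42.0 and limma 3.58.1 served as alternatives.

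Members and lists were chosen with earlier results of these data known. Of 661 list symbols 660 matched. Lists are described by counts and medians, with no set test. Named genes were Nfe2l2, the 10 genes of smallest p for the interaction with 16 and with 15 libraries at mean log2 CPM of at least 1 (no predicted, immunoglobulin, T cell receptor or pseudogene names), the member of smallest p in each list, and the 10 leading alike genes. A few named genes are not reported here. Other list members were named for their known role after their values were seen. Alternatives were another tool, normalization and filter, other designs, the BMX-001 strata and leaving out each library.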

Additional observations from a re-analysis of the deposited data

Results flagged for a closer look

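In the arms of 4 libraries, 16 of 220 groups of values held a library whose gap to the others exceeded the 95% limit for a single outlying value, where chance gives about 11, or 1 in 20. KO BMX-001 replicate 1 accounted for 6 and WT PBS replicate 2 for 4.

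KO BMX-001 replicate 1 had 27305707 counts against 36011347 to 36588168 in the other KO libraries without 5-FU. In the same arm it had 236 CPM of Slfn14 against 269.5 to 273, 208 CPM of Tal1 against 327 to 344, 53.3 CPM of the chemokine gene Cxcl2 against 0.404 to 1.66, 35.8 CPM of Egr1 against 7.10 to 11.6, and 34.3 CPM of Socs3 against 8.02 to 11.3.

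WT PBS replicate 2 had 20.4 CPM of Cdkn1a against 7.62 to 8.82 in the other WT libraries without 5-FU, 19.7 CPM of Cxcl2 against 0.303 to 0.998, 37.9 CPM of Egr1 against 9.26 to 10.9 and 21.0 CPM of Socs3 against 7.38 to 8.98. WT PBS replicate 1 had 1.08 CPM of the plasma cell receptor gene Tnfrsf17 against 0.271 to 0.358.

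Among libraries with 5-FU, KO 5-FU replicate 1 had 19.1 CPM of Cpeb3 against 22.5 to 22.7 and 145 CPM of Rpl37 against 127 to 129. WT 5-FU replicate 2 had 258 CPM of Asb1 against 289 to 294. WT BMX-001 with 5-FU replicate 2 had 0.998 CPM of Vsig4 against 0.443 to 0.536, and its replicate 1 had 7.52 CPM of Cd200r3 against 5.61 to 5.89.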

How the results depend on the processing

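Counts of calls depended on the tool, the filter and single libraries. With 16 libraries the WT count of 16 became 134 under DESeq2, 361 with no low-count filter, 203 with limma voom and sample weights, 267 in the libraries without BMX-001 and 0 in those with it, and 0 to 182 when 1 library was left out. The KO count of 417 became 921, 1567, 900, 277 and 0 in the same order, and 250 to 767 when 1 library was left out. The interaction count of 0 became 55 under DESeq2, 194 with no filter and 1 in the libraries without BMX-001. With 15 libraries the WT count of 182 became 573 under DESeq2, 1072 with no filter, 376 with 8 group means, 23 in the libraries with BMX-001, and 24 to 263 when 1 more library was left out. The KO count of 767 became 1243 under DESeq2, 1503 with no filter, 270 in the libraries with BMX-001, and 424 to 851 when 1 more was left out. The interaction count of 0 became 126 under DESeq2, 278 with no filter, 2 in the libraries with BMX-001, and 0 to 1 when 1 more was left out. With limma voom and sample weights the interaction count stayed at 0 with 16 and with 15 libraries (smallest adjusted p of 0.146 and 0.151). Within 2-fold rather than 1.5-fold, 11336 genes were alike with 16 libraries. The fits with no filter kept 33845 genes and had a median of 338400 total degrees of freedom against 18.87, so their p-values are not comparable. For other causes, the cause was not tested.

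Replicate numbers did not pair the libraries: over 28 pairs of same-numbered libraries their deviations correlated from -0.536 to 0.319, 11 above 0.1. With a replicate block, calls in WT, KO and the interaction were 15, 364 and 0 with 16 libraries and 159, 744 and 0 with 15, with a smallest adjusted p for the interaction of 0.736 and 0.268. The term for the interaction with BMX-001 was chosen after seeing the data. The sign of the interaction held under all alternatives for 55 of 58 named genes with 15 libraries and 43 of 58 with 16, and for 16 and 15 of the 32 list medians.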
